A study of Mus musculus with 34 samples.

Results

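Embryonic stem cells were set against germ cells taken from the mouse embryo at E11.5, as 2 arrays of stem cells against 4 arrays of germ cells, 6 of the 34 samples of the series. Both kinds of cell express Pou5f1 (Oct4), Sox2 and Nanog. The comparison asks what else differs between a cultured and an embryonic cell that share these factors. The stem cells (ESC) were male, of strain C57Bl/6, between passage 9 and passage 14, and were grown with serum and the cytokine LIF. The germ cells (PGC) came from C57Bl/6 embryos of both sexes and were sorted for green fluorescence driven by Oct4, so the level of Pou5f1 in them is not independent of the sort. Sex, culture, developmental stage and isolation by sorting all differ between the groups and cannot be told apart here. The samples were chosen by their titles, and the third ESC column and the fifth PGC column were left out because each equals the mean of the other columns of its group. The other groups used below are embryonic germ cell lines (EGC, 3 arrays), which are male, were derived from E12.5 germ cells, and were grown with LIF and serum to passage 19, male germ cells at E13.5 (3 arrays), the inner cell mass of E3.5 blastocysts (ICM, 3 arrays, mixed strains, isolated by immunosurgery), somatic cells of the E11.5 gonad with its adjoining mesonephros, of both sexes, sorted as negative for the Oct4 fluorescence (SGM, 4 arrays) and fibroblasts of E13.5 embryos of both sexes, grown in serum to passage 2 (MEF, 6 arrays). The statistical fit also held female germ cells at E13.5 (3 arrays) and 2 groups from 8-week mice. These were neural stem/precursor cells of both sexes at passage 1 (2 arrays) and male hematopoietic stem/precursor cells (2 arrays).

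Primordial germ cells are the embryonic precursors of eggs and sperm. They are set aside from the epiblast under BMP signals, carry the repressor Prdm1 and the maternal-effect factor Dppa3, migrate to the gonad and erase most DNA methylation on the way, including that of imprinted genes. Embryonic stem cells are derived from the inner cell mass of the blastocyst and renew themselves in culture, where LIF acts through Stat3 and serum supplies BMP activity that induces the Id genes. When placed in culture with suitable growth factors, germ cells can convert to embryonic germ cells, which resemble stem cells.

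Values are log2 signals, so a difference of 1 is a 2-fold difference, and each is given with the standard error (SE) of a limma fit over 32 arrays and its p adjusted by the Benjamini-Hochberg method over 8251 genes. A gene passed at an adjusted p under 0.05. The labels call the arrays of each group biological replicates. The p-values rest on a spread pooled over the arrays within all 10 groups, to which the 2 ESC arrays add little. In bulk RNA, fewer cells that express a gene and less RNA per cell cannot be told apart.

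One germ cell array stood apart from the others. PGC replicate 4 correlated with the other 3 PGC arrays at 0.977 to 0.985 over all genes, against 0.994 to 0.996 among those 3. In a fit without it, 308 genes were at least 2-fold lower in ESC, and in 263 of these replicate 4 was shifted toward ESC, by a median of 30.9% of the distance. Of 227 genes at least 2-fold higher in ESC in that fit, 138 were shifted toward ESC, by a median of 8.12%. The mean signal of 11 erythroid markers was 7.70 in replicate 4, 6.85 to 7.38 in the other PGC arrays, 7.22 and 7.27 in ESC and 9.47 to 10.06 in SGM. The rise was not particular to erythroid genes. Replicate 4 was also the highest PGC array for gonad (6.92 against 6.72 to 6.84), mesenchyme, endothelial, macrophage, primitive endoderm and trophectoderm markers. Its median signal over all genes was the highest too (7.70 against 7.63 to 7.65). Control probe sets differed too. The 3′ minus 5′ signal of actin was 1.37 and 1.75 in ESC and 0.81 to 1.09 in PGC, while that of Gapdh was 2.46 and 2.84 in ESC and 3.21 to 3.67 in PGC. Neither measure overlapped between the groups, they pointed opposite ways, and their part in the results was not tested.

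Genes passed in similar numbers in the 2 directions. Of 8251 genes, 1360 (16.5%) passed as higher in ESC and 1286 (15.6%) as lower, and the median difference over all genes was 0.01. The values were normalized by RMA, which brings arrays to a like distribution, and the array medians were 7.63 to 7.70. The small median difference and the balance of directions are therefore partly set by that step. The shares of all genes that passed, 16.5% higher and 15.6% lower, are those to set beside each list count below. At least 2-fold differences were found in 223 genes higher in ESC (2.70%) and 252 lower (3.05%). Arrays of the groups did not overlap in 2175 genes higher in ESC (26.4%) and 1998 lower (24.2%), a larger share than passed the test. Without ESC replicate 1 the counts fell to 835 higher and 767 lower, and without ESC replicate 2 to 871 and 807. Listed genes with small differences also depended on the 2 ESC arrays. Of 66 listed genes called at 2-fold or more, 58 kept the call without ESC replicate 1, 58 without ESC replicate 2 and 64 to 66 without any 1 PGC array. Of 169 listed genes called with a smaller difference, 81 and 89 kept it without ESC replicate 1 and 2, and 137 to 154 without any 1 PGC array.

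The leading genes higher in ESC were headed by Gja1, which encodes the gap junction protein connexin 43. Gja1 read 12.42 and 12.32 in ESC against 6.20, 5.41, 4.94 and 6.81 in PGC. Both ESC arrays lay far above the germ cell arrays, with a difference of 6.53 (SE 0.28, 92.5-fold, limma adjusted p = 1.61e-15), and a second, less bright probe set gave 2.78. Prps1, an X-linked enzyme of nucleotide synthesis, read 10.89 and 10.83 in ESC and 7.09, 7.07, 6.73 and 7.49 in PGC, a 13.6-fold difference. Acsl4 (2.62), Slc27a2 (2.48) and Fabp3 (2.55), which activate, import and bind fatty acids, were each higher in ESC by these log2 differences. Pawr, a pro-apoptotic repressor, was 7.91 and 7.82 in ESC and 4.72 to 5.14 in PGC. Frrs1, a ferric reductase, and 1190005I06Rik differed by 2.99 and 2.67 on the log2 scale. The other leading genes, Klf4, Mt1, Tdgf1 and Ldha, are described with their groups.

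**Figure D1:**
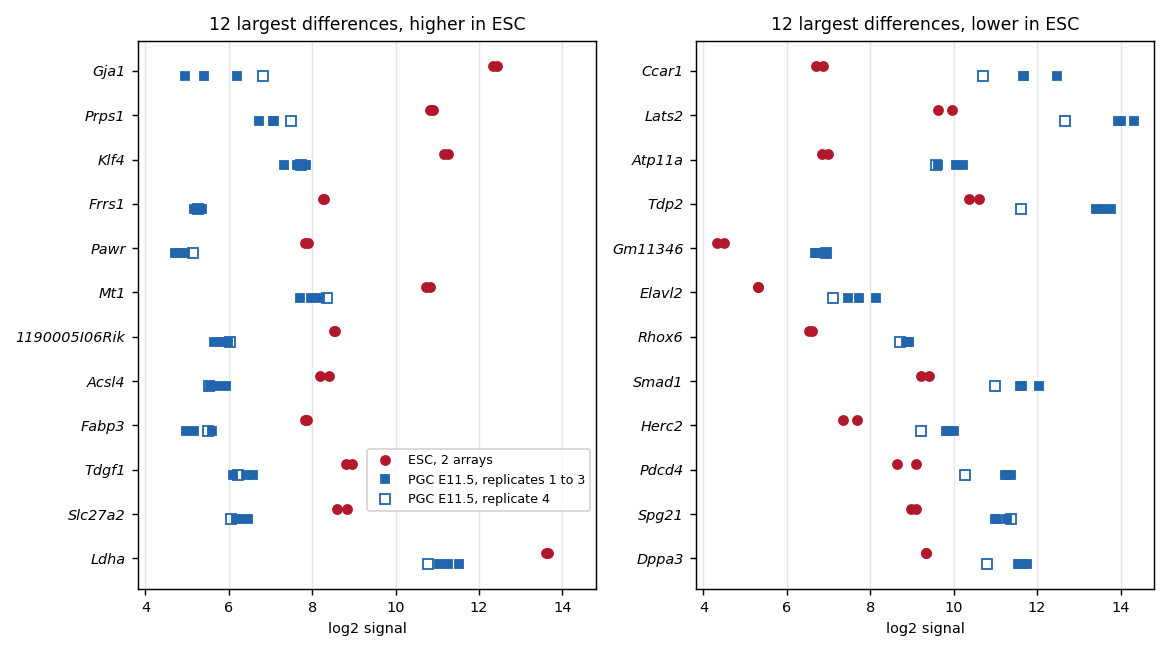
Log2 signal on each array (x axis) of the 12 genes with the largest differences in each direction (y axis) whose arrays did not overlap. Red circles are the 2 ESC arrays, filled blue squares PGC replicates 1 to 3 and open squares PGC replicate 4, which lies toward ESC in genes such as Tdp2 (11.63) and Lats2 (12.66).

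The leading genes lower in ESC were headed by Ccar1, a coactivator in cell cycle and apoptosis control. Ccar1 read 6.70 and 6.86 in ESC and 11.65, 12.48, 11.67 and 10.70 in PGC. No array overlapped, and the difference was -4.85 (SE 0.30, 28.9-fold, limma adjusted p = 5.84e-12), with -1.12 at a second probe set. The ICM mean of Ccar1 was 6.69, beside ESC, while EGC, SGM and MEF had means of 10.42, 10.47 and 10.26. Atp11a, a phospholipid flippase, was 6.83 and 6.99 in ESC and 9.57 to 10.23 in PGC. Tdp2, which releases topoisomerase from DNA ends, was 10.38 and 10.61 in ESC and 13.42, 13.78, 13.55 and 11.63 in PGC, where replicate 4 was the low array. Herc2, a ubiquitin ligase (-2.21), Pdcd4, an inhibitor of translation (-2.16), Spg21 (-2.13) and Gm11346 (-2.40) were also lower in ESC without overlap. The same lack of overlap held for 24.2% of all genes.

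The promoters of these leading genes are shown where they held the E-box CACGTG, the palindromic site read by Myc, Usf and related factors. RefSeq promoters of build GRCm38.p6 matched 12 of the 12 higher genes and 8 of the 12 lower genes, and the 250 bases before the start were searched on both strands. CACGTG was found in 2 of the 12 and in 2 of the 8, against 6.02% of all 32851 promoters in the table, which include those of genes not on the array. The octamer ATGCAAAT was found in none of the matched promoters (1.60% of all) and the CRE site TGACGTCA in 1, that of Ldha (1.55% of all). The median number of CpG sites was 18 in the higher genes and 20.5 in the lower genes, against 6 in all promoters. The sequences below run 5′ to 3′ and end at the base before the start, with CACGTG in capitals. Klf4 lies at chr4:55532476-55532725 on the minus strand, Ldha at chr7:46845554-46845803 on the plus strand, Ccar1 at chr10:62792369-62792618 on the minus strand and Lats2 at chr14:57746124-57746373 on the minus strand.
Klf4: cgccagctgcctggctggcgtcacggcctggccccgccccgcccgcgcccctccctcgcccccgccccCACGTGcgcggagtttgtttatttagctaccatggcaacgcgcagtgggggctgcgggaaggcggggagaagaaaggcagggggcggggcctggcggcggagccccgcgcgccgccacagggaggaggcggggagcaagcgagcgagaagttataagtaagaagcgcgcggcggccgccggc
Ldha: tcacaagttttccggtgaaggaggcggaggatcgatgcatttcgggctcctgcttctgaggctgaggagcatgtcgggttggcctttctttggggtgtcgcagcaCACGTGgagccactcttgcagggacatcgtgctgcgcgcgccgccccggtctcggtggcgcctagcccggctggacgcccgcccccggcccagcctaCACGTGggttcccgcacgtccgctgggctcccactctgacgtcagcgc
Ccar1: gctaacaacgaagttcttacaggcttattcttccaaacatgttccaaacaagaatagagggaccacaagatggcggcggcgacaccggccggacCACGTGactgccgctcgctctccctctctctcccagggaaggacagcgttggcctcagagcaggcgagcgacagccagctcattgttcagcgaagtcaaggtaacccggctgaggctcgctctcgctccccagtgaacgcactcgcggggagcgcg
Lats2: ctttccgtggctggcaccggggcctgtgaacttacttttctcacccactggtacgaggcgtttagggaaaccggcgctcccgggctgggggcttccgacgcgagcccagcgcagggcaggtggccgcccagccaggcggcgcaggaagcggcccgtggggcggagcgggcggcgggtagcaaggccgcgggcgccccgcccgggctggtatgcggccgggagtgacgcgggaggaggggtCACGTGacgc
The site occurred in genes of both directions. A match is a stretch of letters, and its use in these cells was not tested.

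The shared pluripotency network was close in level between the 2 cell types at its centre. Sox2 read 11.81 and 11.82 in ESC and 11.62, 12.08, 11.88 and 11.65 in PGC. The ESC arrays lay within the germ cell range, and the difference was 0.01 (SE 0.16, limma adjusted p = 0.982). Sall4, a zinc finger factor of the same network, was 10.01 and 10.04 in ESC and 9.82 to 10.33 in PGC, and Zfp42 (Rex1), a marker of the naive state, was 9.72 and 9.85 in ESC and 9.23 to 10.51 in PGC. Neither passed the test. Pou5f1 was 10.89 and 10.37 in ESC and 9.84 to 10.19 in PGC, and Nanog 12.22 and 12.08 against 11.43 to 11.74. Over all genes, 26.4% were higher in ESC without overlap. The groups did not overlap for Pou5f1 or Nanog, with differences of 0.63 (limma adjusted p = 0.0272) and 0.59 (limma adjusted p = 0.042). Neither call held when the mean of all probe sets was used (Pou5f1 0.17, Nanog 0.39), nor without ESC replicate 1 (0.37 and 0.52). The call was lost for both without PGC replicate 3 or 4, and for Nanog also without ESC replicate 2 or PGC replicate 1. In SGM Pou5f1, Sox2 and Nanog had means of 4.38, 4.65 and 6.62.

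Around this centre, 11 of 23 measured members of a list of core pluripotency genes passed as higher in ESC and 3 as lower, with a median of 0.43 against 0.01 over all genes. Without PGC replicate 4 the counts were 8 and 3, without ESC replicate 1 they were 5 and 1, and without ESC replicate 2 they were 5 and 2. Tdgf1 (Cripto), the Nodal co-receptor, was 8.95 and 8.80 in ESC and 6.09, 6.59, 6.42 and 6.21 in PGC. Fgf4, the stem cell growth factor that Oct4 and Sox2 jointly activate, had a mean of 12.01 in ESC and read 10.29 to 10.55 in PGC. Both were higher in every ESC array, by 2.55 (SE 0.26, limma adjusted p = 2.54e-08) and 1.61 (SE 0.16, adjusted p = 2.25e-08). For Fgf4 the PGC mean lay near those of SGM (10.69) and MEF (10.59). Phc1, a polycomb protein (0.78), the glucose transporter Slc2a3 (0.85) and Nr0b1 (Dax1), a nuclear receptor of the network (0.71), were higher in ESC by less than 2-fold, and the calls for Phc1 and Nr0b1 were lost without ESC replicate 2. The 3 lower genes were Dppa4, a chromatin protein of pluripotent cells (-0.73, lost without ESC replicate 1), Tex19.1 (-0.65, lost without ESC replicate 2) and Rex2 (-0.59, lost without ESC replicate 1). Dppa2, the partner of Dppa4, differed by 0.24 and did not pass.

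Among genes of the naive state and of the culture signals, LIF and BMP, 5 of 25 passed as higher in ESC and 2 as lower, with a median of 0.02. Without ESC replicate 1 the counts were 2 and 1, and without ESC replicate 2 they were 3 and 2. Klf4, a target of LIF signalling and one of the reprogramming factors, read 11.17 and 11.26 in ESC against 7.85, 7.62, 7.33 and 7.73 in PGC. Both ESC arrays were above all germ cell arrays, a difference of 3.58 (SE 0.30, 11.9-fold, limma adjusted p = 8.19e-10), although a second probe set of Klf4, of lower signal, gave -0.26 and did not pass. ICM (11.78), SGM (10.69) and MEF (12.05) also had high Klf4. Low means were found in E13.5 male germ cells (8.04) and also in neural stem/precursor cells (8.31). Klf2 and Klf5, its close relatives in the naive network, differed by -0.22 and 0.18 and did not pass. Socs3, the feedback inhibitor induced by Stat3, was 8.31 and 8.38 in ESC and 6.27 to 6.87 in PGC, but its other probe set gave -0.18 and did not pass. Tbx3 was higher (0.66), while Il6st, the shared receptor chain of LIF, was lower (-0.69), and both calls were lost without ESC replicate 1. Gbx2 was lower (-0.61). Stat3 (0.28), Myc (0.41) and Mycn (0.01) did not pass, although a second Mycn probe set passed as lower (-0.53), and Esrrb was near 6.6 in ESC, PGC, SGM and MEF alike (6.66, 6.64, 6.58 and 6.57).

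The Id genes, readouts of BMP signalling, did not move together. Id2 was 9.73 and 9.93 in ESC and 8.18 to 8.36 in PGC, a difference of 1.57 (SE 0.46, limma adjusted p = 0.0105). Id1 was 8.38 and 8.76 against 7.58 to 8.36, a difference of 0.70 (adjusted p = 0.0436), and Id3 was 9.33 and 9.41 against 9.52 to 10.22 and did not pass. Calls for Id1 and Id2 were both lost without either ESC array, and that for Id1 also without PGC replicate 1, 2 or 3. In the BMP, Nodal and TGF-beta list 8 of 30 genes passed as higher and 3 as lower, with a median of 0.22, against 5 and 3 without ESC replicate 1 and 4 and 2 without ESC replicate 2. The lower genes were the BMP transducer Smad1, the inhibitory Smad6 (-0.85) and the TGF-beta transducer Smad3 (-0.53, lost without ESC replicate 2). Smad1 was 9.21 and 9.40 in ESC and 11.64, 12.03, 11.58 and 10.98 in PGC, with -1.04 at its second probe set against -2.25 at the first. The higher genes were Tdgf1, the repressor Tgif1 (10.65 and 10.74 against 9.35 to 9.45), the receptors Tgfbr1 (0.83), Tgfbr2 (0.51), Acvr2b (0.42) and Acvr1 (0.38), the ligand Bmp4 (0.58) and the Nodal inhibitor Lefty1 (0.54). The call for Lefty1 was lost without ESC replicate 1, those for Tgfbr2 and Bmp4 without ESC replicate 2 and that for Acvr1 without either, while that for Acvr2b held in 2 of the 6 fits without 1 array. Nodal itself was 8.91 and 8.97 against 8.30 to 8.72 and did not pass (0.42, adjusted p = 0.0945).

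**Figure D2:**
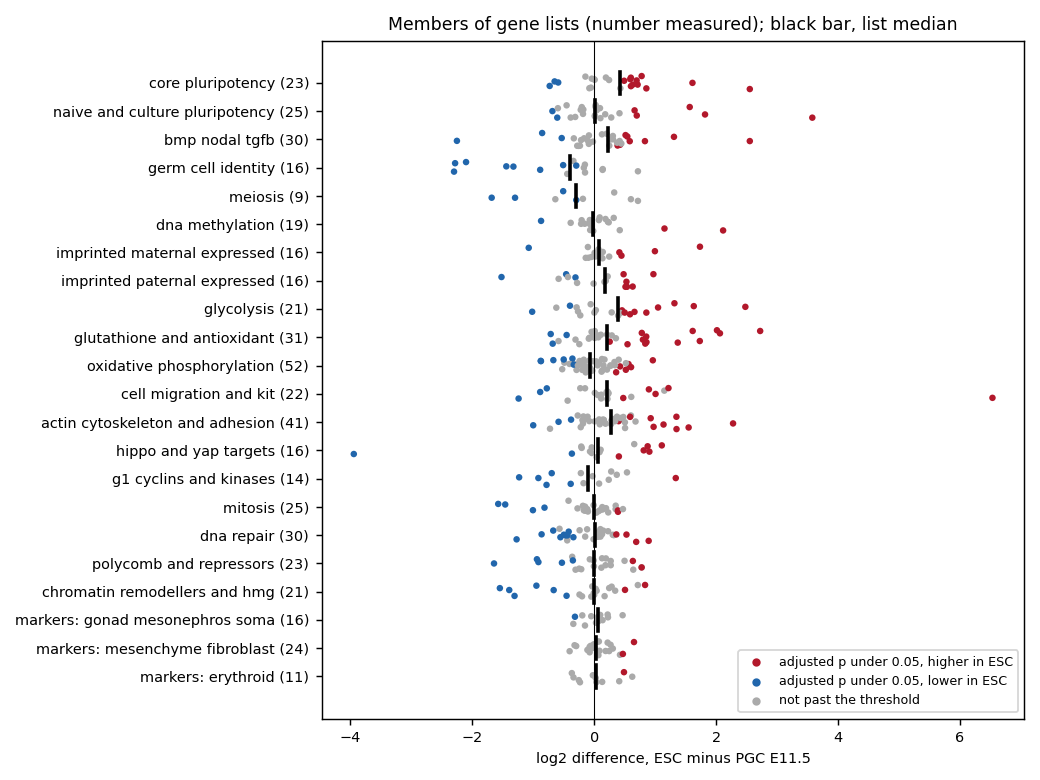
Log2 difference, ESC minus PGC E11.5 (x axis), of each measured member of 22 gene lists (y axis, number measured in brackets), each point a gene and each black bar a list median. Points past the test are red (higher in ESC) or blue (lower), and the germ cell identity list has 8 blue points and 0 red.

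Genes of germ cell identity were lower in ESC than in PGC E11.5 or did not pass. Of 39 listed genes 16 were measured, 8 passed as lower and 0 as higher, with a median of -0.39; without PGC replicate 4, 9 passed as lower, and without either ESC array, 6. Dppa3 (Stella), which protects the early embryo's maternal genome from demethylation, read 9.34 and 9.33 in ESC and 11.64, 11.75, 11.54 and 10.80 in PGC. All PGC arrays were above ESC, and replicate 4 was the lowest of them, with a difference of -2.10 (SE 0.19, 4.30-fold, limma adjusted p = 4.02e-09). Dppa3 in ESC was still far above SGM (5.71) and MEF (5.49), and ICM (11.31) was near the germ cell level. Prdm1 (Blimp1), the repressor that founds the lineage, was 6.90 and 7.20 in ESC and 8.62, 8.91, 8.75 and 7.69 in PGC. Rhox6, an X-linked homeobox gene also used as a placental marker, was 6.53 and 6.60 in ESC and 8.72 to 8.92 in PGC. Elavl2, an RNA-binding protein of neurons and germ cells, was 5.31 and 5.30 against 7.10 to 8.14, and Ifitm3 (Fragilis), a surface marker of early germ cells, 10.05 and 10.09 against 11.15 to 11.88. None of these 4 overlapped between the groups, and 24.2% of all genes were lower in ESC without overlap. Means in male and female germ cells at E13.5 were 6.53 and 7.14 for Prdm1 and 6.63 and 8.61 for Rhox6. For Prdm1 the E13.5 male mean was thus below both ESC arrays. Those of Dppa3 (11.41 and 10.75), Elavl2 (7.46 and 7.59) and Ifitm3 (11.40 and 11.38) were above ESC. Elavl2 was also higher in SGM (6.61) and MEF (6.81) than in ESC.

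Other germ cell genes had smaller differences. Kit, the receptor for stem cell factor, was 7.42 and 7.87 in ESC and 8.78, 8.77, 8.68 and 7.91 in PGC, where replicate 4 was near ESC, and the call (-0.89, limma adjusted p = 0.0122) was lost without ESC replicate 1, while without PGC replicate 4 it was -1.09 (adjusted p = 0.00169). Tfap2c, the activator that acts with Prdm1, was 11.67 and 11.57 against 12.15, 12.17, 12.21 and 11.71, a difference of -0.44 that did not pass (adjusted p = 0.0538), but that passed without PGC replicate 4 (-0.56, limma adjusted p = 0.0144). Ddx4 (Vasa), a helicase of later germ cells, was 6.38 and 6.45 against 6.91, 6.89, 6.99 and 6.24 and did not pass. E13.5 male and female means of Kit (6.41 and 6.96), Tfap2c (10.37 and 11.18) and Ddx4 (5.30 and 6.33) lay below both ESC arrays. Dazl differed by 0.14 and did not pass. Rhox5, an X-linked homeobox gene, was slightly lower in ESC (-0.51), a call lost without either ESC array.

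The meiosis list held 9 measured genes, of which 4 passed as lower in ESC and 0 as higher, against 3 without ESC replicate 1 and 2 without ESC replicate 2. With all arrays the lower genes were 44.4% of the list, against 15.6% of all genes. Stag3, the meiosis-specific cohesin subunit, was 6.28 and 6.40 in ESC and 8.02, 7.70, 8.10 and 8.26 in PGC. The difference was -1.68 (SE 0.12, 3.21-fold, limma adjusted p = 2.75e-11), and ESC lay beside SGM (6.15) and EGC (6.34), with 8.70 in E13.5 male germ cells. Rad21, the cohesin subunit of dividing cells, was also lower in ESC (10.41 and 10.55 against 11.28 to 12.16). Stra8, the retinoic acid target at meiotic entry, Dmc1 and Sycp1 had differences of 0.60, 0.33 and 0.72 and did not pass.

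**Figure D3:**
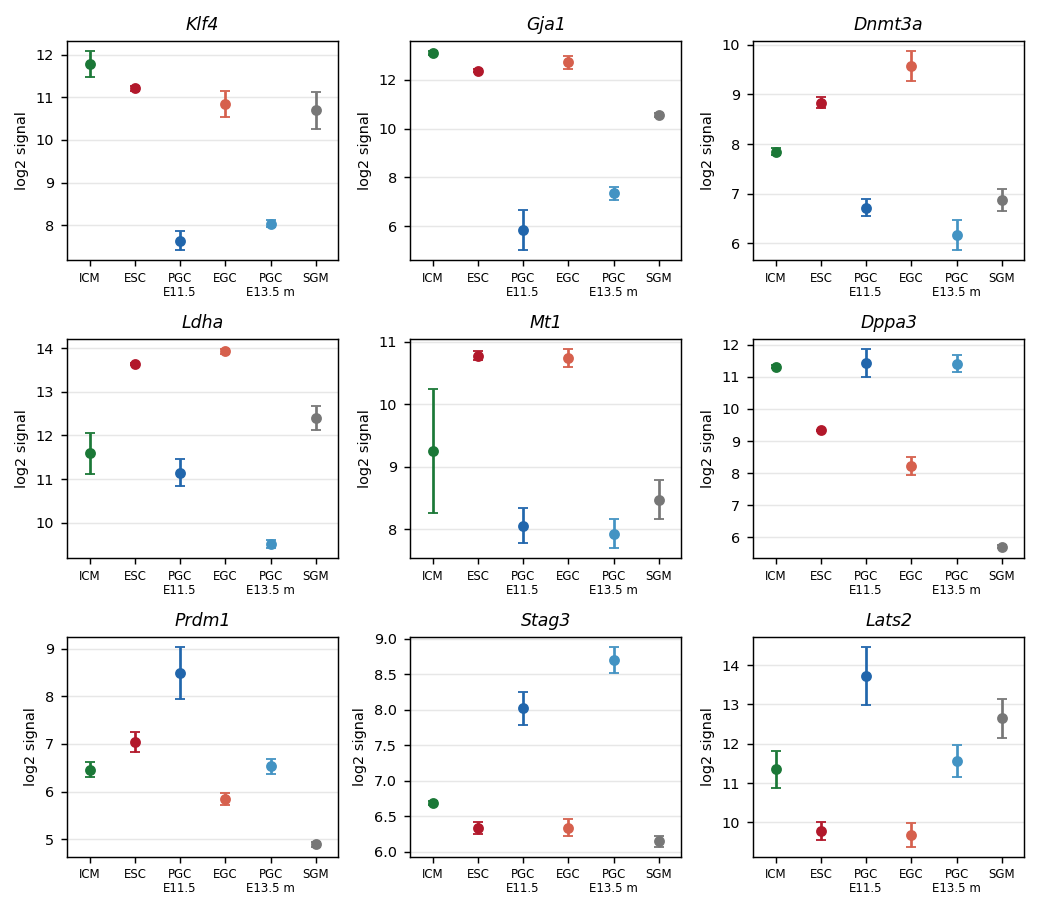
Log2 signal (y axis, group mean with SD as bars) of 9 genes in ICM (3 arrays), ESC (2), PGC E11.5 (4), EGC (3), male PGC E13.5 (3) and SGM (4). Klf4 and Gja1 are low in the germ cell groups and high in the other 4, Stag3 is high only in the germ cell groups among these 6, and Dppa3 in ICM (11.31) is beside PGC.

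Of 19 genes for DNA methylation and its removal, 2 passed as higher in ESC and 1 as lower, and 1 and 1 without either ESC array. With all arrays these were 10.5% and 5.26% of the list, against 16.5% and 15.6% of all genes. Dnmt3a, a de novo DNA methyltransferase, read 8.91 and 8.75 in ESC and 6.69, 6.96, 6.61 and 6.60 in PGC. No array overlapped, the difference was 2.11 (SE 0.20, 4.33-fold, limma adjusted p = 8.66e-09), and a second probe set gave 0.19 and did not pass. Without overlap, 26.4% of all genes were higher in ESC. PGC Dnmt3a was near SGM (6.87), and ICM was between (7.85). Dnmt1, the maintenance enzyme, was 9.45 in both ESC arrays and 9.37 to 9.52 in PGC, a difference of -0.02 (SE 0.20). Uhrf1, which brings Dnmt1 to replicated DNA, differed by -0.39 and Tet1, which oxidises methylated cytosine, by -0.07, and neither passed. The uracil glycosylase Ung was lower in ESC (-0.87) and Gadd45g was higher (1.15), a call lost without either ESC array. Dnmt3b, Dnmt3l and H19 were not measured here.

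Imprinted genes differed in both directions. Of 16 measured genes usually expressed from the maternal copy, 4 passed as higher in ESC and 1 as lower, and of 16 from the paternal copy, 6 as higher and 3 as lower. Without ESC replicate 1 the maternal counts were 2 and 1 and the paternal 4 and 1, and without ESC replicate 2 they were 2 and 1, and 2 and 2. Gnas, a G protein subunit, had means of 12.43 in ESC and 10.69 in PGC, with 0.28 and 0.10 at its other probe sets. Cdkn1c, a cell cycle inhibitor, was higher by 0.99 and Sfmbt2 by 0.97, calls lost without ESC replicate 2. Igf2r, which clears Igf2, was 9.56 and 9.38 in ESC and 10.25 to 10.83 in PGC. Ndn, a growth suppressor of the Prader-Willi region, was 8.70 and 9.13 against 10.32 to 10.64, while its second probe set gave 0.16 and did not pass. Igf2 was 12.01 and 12.16 in ESC and 11.58 to 12.67 in PGC, against 15.80 in SGM. Of 259 X-linked genes 54 passed as higher in ESC (20.8%) and 47 as lower (18.1%), with a median of -0.03, beside 16.3% and 15.5% of 7971 autosomal genes. The silencing RNA Xist was 5.54 and 5.47 in ESC and 5.16 to 5.33 in PGC and did not pass.

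Glycolytic genes were mostly higher in ESC where they passed. Of the list 42.9% passed as higher and 9.52% as lower, against 16.5% and 15.6% of all genes. Of 21 genes, 9 passed as higher and 2 as lower, with a median of 0.39; without PGC replicate 4 the counts were 8 and 2, without ESC replicate 1 they were 5 and 1, and without ESC replicate 2 they were 8 and 1. Ldha, the lactate dehydrogenase of rapidly dividing cells, was 13.61 and 13.64 in ESC and 11.04, 11.52, 11.26 and 10.78 in PGC. The 2.48 difference (SE 0.19, 5.57-fold, limma adjusted p = 2.46e-10) was the largest of the list, and ICM was near PGC (11.59). Pgk1, which makes ATP in the later steps of the pathway, was 13.25 and 13.31 in ESC and 11.33 to 11.86 in PGC. Pgam1 (12.35 and 12.21 against 10.76 to 11.10) and Tpi1 (11.12 and 10.90 against 9.78 to 10.29) did not overlap either. Over all genes 26.4% were higher in ESC without overlap. The glucose transporters Slc2a1 (0.59) and Slc2a3 (0.85) and Pkm (0.66), which ends the pathway, were higher by less than 2-fold, and the calls for Slc2a1 and Pkm were lost without ESC replicate 1. The 2 lower genes were Pdk3 (-1.02), a pyruvate dehydrogenase kinase, and Pfkm (-0.40), whose call was lost without either ESC array. Hexokinases Hk1 (0.00) and Hk2 (0.43) did not pass. Subunits of oxidative phosphorylation were split, with 6 of 52 higher, 6 lower and a median of -0.08, with 6 higher and 1 lower without ESC replicate 1.

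Genes that buffer metals and oxidants were higher in ESC in 13 of 31 cases and lower in 3, with a median of 0.21, and in 10 and 2 without either ESC array. With all arrays these were 41.9% and 9.68% of the list, against 16.5% and 15.6% of all genes. Mt1, a metallothionein that binds zinc and copper, read 10.72 and 10.82 in ESC and 7.71, 8.18, 7.96 and 8.36 in PGC. ESC was above all germ cell arrays by 2.72 (SE 0.32, 6.59-fold, limma adjusted p = 2.69e-07). Mt2 was 13.02 and 13.18 against 11.33 to 12.39, a call lost without either ESC array. Nfe2l2 (Nrf2), the activator of the antioxidant response, was 11.51 and 11.42 in ESC and 10.08, 10.24, 10.01 and 9.08 in PGC. Gclm, the modifier subunit of the enzyme that limits glutathione synthesis, was 8.44 and 8.77 against 6.44 to 6.67. The transferases Gsta4 (10.32 and 10.28 against 8.15 to 8.49) and Gsto1 (10.58 and 10.71 against 8.62 to 9.68) followed. Txnrd1 (0.86), Gpx4 (0.85, lost without ESC replicate 1) and Txn1 (0.78) were higher. The 3 lower genes were Prdx4 (-0.71), Nqo1 (-0.68), a standard Nrf2 target, and Gclc (-0.45), the catalytic partner of Gclm, whose call held in 1 of the 6 fits without 1 array.

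Adhesion and cytoskeleton genes were led by Gja1. Of the migration and adhesion list 22.7% passed as higher in ESC and 13.6% as lower, and of the actin list 22.0% and 7.32%. Over all genes the shares were 16.5% and 15.6%. Among 22 genes of germ cell migration and adhesion, 5 passed as higher in ESC and 3 as lower, against 4 and 1 without ESC replicate 1 and 3 and 2 without ESC replicate 2. Itga6, a laminin receptor subunit, was 7.54 and 7.72 in ESC and 6.28 to 6.61 in PGC, and Cd9, a tetraspanin, was 10.02 and 10.25 against 8.95 to 9.48, a call lost without ESC replicate 2. Cd24a was lower (-1.24), a call lost without either ESC array. The integrin subunit Itgav was lower (-0.78) and passed without any 1 array. Cdh1, the epithelial cadherin, differed by 0.22 and Cxcr4, the homing receptor of migrating germ cells, by 0.01, and neither passed. In the actin and adhesion list 9 of 41 genes passed as higher and 3 as lower, with a median of 0.28, and without PGC replicate 4 the counts were 13 and 2, without ESC replicate 1 they were 7 and 1, and without ESC replicate 2 they were 5 and 2. Tpm4, a tropomyosin that stabilises actin filaments, was 11.15 and 11.31 in ESC and 9.26, 8.77, 8.30 and 9.49 in PGC. Tpm1 (10.75 and 10.74 against 9.09 to 9.24), Actg1 (12.63 and 12.56 against 11.15 to 11.32), Anxa1 (10.77 and 11.09 against 9.42 to 9.81) and Ezr (9.98 and 10.30 against 8.84 to 9.28) were also higher without overlap, although another probe set of Anxa1 gave -0.19 and did not pass. Over all genes 26.4% were higher in ESC without overlap. Actb differed by 0.17 and did not pass. Vinculin (Vcl), which links actin to adhesion sites, was lower (10.55 and 10.67 against 11.24 to 12.08), a call lost without ESC replicate 1, and its second probe set gave -0.21 and did not pass.

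The Hippo pathway restrains growth by keeping Yap1 out of the nucleus, and 5 of its 16 measured genes passed as higher in ESC and 2 as lower, with a median of 0.06, or 4 and 1 without ESC replicate 1. Lats2, the kinase that phosphorylates Yap1, read 9.62 and 9.95 in ESC and 14.02, 14.31, 13.93 and 12.66 in PGC. All PGC arrays were above ESC, with a difference of -3.94 (SE 0.38, 15.4-fold, limma adjusted p = 1.21e-08). Means of Lats2 were 11.35 in ICM, 12.65 in SGM and 14.46 in MEF. Yap1 (0.88), its relative Wwtr1 (0.81), Rassf1 (0.90), a scaffold of the pathway, Birc3 (0.40) and the target gene Ccn2 were higher in ESC, where Ccn2 read 9.45 and 9.56 against 8.00 to 8.88 in PGC. The other classical targets Ccn1 (-0.07) and Ankrd1 (0.10) did not pass, and Tead1, a partner of Yap1 on DNA, was lower (-0.37). The calls for Birc3 and Tead1 were lost without ESC replicate 1.

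Cell cycle genes passed in both directions. Ccnd1, the cyclin of growth factor signals, was 10.62 and 10.78 in ESC and 9.41, 9.01, 9.25 and 9.80 in PGC, but its second probe set passed in the opposite direction (-0.44). Ccnd2 (0.54) did not pass, and Ccnd3 was lower by 0.39 (limma adjusted p = 0.0478), a call that held in 1 of the 6 fits without 1 array. Of 14 G1 genes 1 (7.14%) was higher and 5 (35.7%) were lower, against 16.5% and 15.6% of all genes. The lower genes included Rb1, the retinoblastoma protein (5.85 and 5.78 against 6.64 to 7.41), and the E2F factors E2f1 (-0.92), E2f5 (-0.78) and E2f3 (-0.70). In mitosis 2 of 25 were higher and 4 lower, with 1 and 2 without either ESC array and 1 and 5 without PGC replicate 4. Cks2, a kinase subunit, was 11.41 and 11.16 in ESC and 12.71 to 13.11 in PGC, and Kif2c, a motor that corrects chromosome attachment, was 8.51 and 8.55 against 9.94 to 10.04. Mki67 (0.07) and Cdk1 (0.23) did not pass.

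Genes of replication and repair passed in both directions. In replication 3 of 35 (8.57%) were higher and 6 (17.1%) lower, against 16.5% and 15.6% of all genes, with 2 and 6 without ESC replicate 1 and 1 and 3 without ESC replicate 2. The lower genes included Orc4 (8.43 and 8.63 against 9.43 to 9.85) and Fen1 (6.85 and 6.80 against 7.79 to 8.02), a subunit of the origin complex and the flap endonuclease. In repair 4 of 30 (13.3%) were higher and 9 (30.0%) lower, against 4 and 3 without ESC replicate 1 and 2 and 7 without ESC replicate 2. Brca1, which acts in repair by recombination, was 9.64 and 9.73 in ESC and 11.15, 11.31, 11.03 and 10.36 in PGC, without overlap. Of all genes 24.2% were lower in ESC without overlap. Atm, the break-sensing kinase, was lower by 0.86 and Prkdc, the kinase of end joining, was higher by 0.89.

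Among polycomb proteins and other repressors 2 of 23 (8.70%) were higher in ESC and 5 (21.7%) lower. Among remodellers and HMG proteins 2 of 21 (9.52%) were higher and 6 (28.6%) lower, against 16.5% and 15.6% of all genes. Without ESC replicate 1 these counts were 2 and 3, and 2 and 5, and without ESC replicate 2 they were 1 and 3, and 1 and 5. Hdac2, a histone deacetylase, was 9.45 and 9.86 in ESC and 11.23, 11.73, 11.26 and 10.98 in PGC, while Hdac1 differed by -0.01. The polycomb protein Bmi1 was lower (-0.94), while the methyltransferase Ezh2 (-0.25) and Suz12 (0.27) did not pass. The HMG proteins Hmgn5 (mean 10.01 against 10.59 to 12.08), Hmgb2 (9.63 and 9.59 against 10.28 to 11.54) and Hmgb3 (10.99 and 10.92 against 11.98 to 12.38) were all lower in ESC, with PGC replicate 4 nearest to ESC in each. The ATPase Smarca2 was lower by 0.95. The higher genes were Phc1 (0.78) and Yy1 (0.63) among the repressors and Smarce1 (0.83) and Smarcd1 (0.50) among the remodellers.

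In the remaining lists genes passed in both directions or in small numbers. Of all genes 16.5% passed as higher and 15.6% as lower. Of 24 immediate early genes, 6 were higher and 4 (16.7%) lower, with Klf10 (-1.57), Jund (-1.38) and Ptgs2 (-1.12) at the low end and Klf4 and Egr1 (0.83, lost without ESC replicate 2) at the high end. Of 31 chaperones 3 were higher and 5 lower, and without PGC replicate 4 the counts were 4 and 9, against 3 and 2 without ESC replicate 1 and 2 and 1 without ESC replicate 2. Of the immediate early genes 4 were higher without either ESC array. The Wnt list had 3 of 30 higher and 4 lower, FGF signalling 4 of 17 and 1, apoptosis 2 of 28 and 3, interferon and MHC genes 3 of 22 and 3, IGF signalling 1 of 16 and 2, inhibitors of the cell cycle 1 of 14 and 2, cholesterol synthesis 0 of 18 and 1, and Hox and related genes 4 of 27 and 4. Among genes of early lineages 5 of 29 were higher and 1, Pax6, was lower (5.58 and 5.99 against 7.05 to 7.37). Without ESC replicate 1 and 2, respectively, the higher counts fell to 3 and 1 for early lineages, 1 and 2 for Hox genes, 2 and 3 for FGF signalling, 2 and 2 for Wnt, 0 and 0 for interferon and MHC genes and 0 and 2 for apoptosis. The lower counts were then 1 and 1 for Hox genes, 0 and 1 for FGF signalling, 2 and 4 for Wnt, 3 and 2 for interferon and MHC genes and 1 and 3 for apoptosis. Cell cycle inhibitors had 2 higher and 0 lower without ESC replicate 1, 0 and 1 without ESC replicate 2 and 2 and 2 without PGC replicate 4. Cholesterol synthesis had 1 higher and 0 lower without ESC replicate 2, and IGF signalling 1 and 1 without ESC replicate 1 and 2 and 2 without PGC replicate 4.

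Few markers of other cell types passed the test, against 16.5% higher and 15.6% lower over all genes. Of 16 gonad and mesonephros markers 0 passed as higher in ESC and 1 as lower, and their mean signal was 6.81 and 6.84 in ESC, 6.72 to 6.92 in PGC and 8.28 to 8.54 in SGM. Of 24 mesenchyme markers, which would also show feeder cells, 2 were higher, and the mean was 8.01 and 8.14 in ESC, 7.90 to 8.11 in PGC and 11.26 to 11.38 in MEF. Erythroid, endothelial and macrophage lists had 1 higher of 11, 1 higher of 11, and 1 higher and 1 lower of 13. The endothelial and macrophage lists had 0 without ESC replicate 1, and without ESC replicate 2 the endothelial list had 0 and the macrophage list 1 higher. Without PGC replicate 4 the erythroid list had 2 higher, the endothelial list 3 higher and the macrophage list 1 higher and 0 lower. The gonad list then had 1 higher and 0 lower and the mesenchyme list 1 higher. Without ESC replicate 2 the gonad list had 0 in either direction and the mesenchyme list 1 higher. Of 17 primitive endoderm markers 3 were higher, Apoe (11.37 and 11.11 against 9.15 to 9.88), and the basement membrane genes Col4a1 (1.23) and Lama1 (0.83, lost without either ESC array), while the defining factors Gata4 (0.03), Gata6 (0.09) and Sox17 (-0.01) did not pass. Of 15 trophectoderm markers 2 were lower, Rhox6 and Gata2 (-0.44, a call that held in 3 of the 6 fits without 1 array), with 1 higher and 1 lower without ESC replicate 2 and 1 higher and 3 lower without PGC replicate 4.

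The second culture comparison of the series, EGC against male germ cells at E13.5, shares no array with the first and was set beside it. In that pair 1219 genes (14.8%) passed as higher in the line and 1311 (15.9%) as lower. Of the 223 genes at least 2-fold higher in ESC, 156 (70.0%) also passed as higher in EGC, 10 passed in the opposite direction and 57 did not pass, with a median EGC difference of 0.89. Of the 252 genes at least 2-fold lower in ESC, 78 (31.0%) also passed as lower in EGC, 32 (12.7%) passed as higher and 142 did not pass, with a median of -0.17. At 2-fold in both pairs were 100 higher genes, 44.8% of the ESC pair's list and 21.2% of the EGC pair's 471, and 30 lower genes, 11.9% of its list and 21.6% of the EGC pair's 139. Those 471 and 139 genes were 5.71% and 1.68% of all genes tested. The difference between the pairs, tested as an interaction in the same fit, passed in 2189 of 8251 genes (26.5%), in 114 of the 223 (51.1%) and in 199 of the 252 (79.0%), lists that were chosen on one side of that test.

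**Figure D4:**
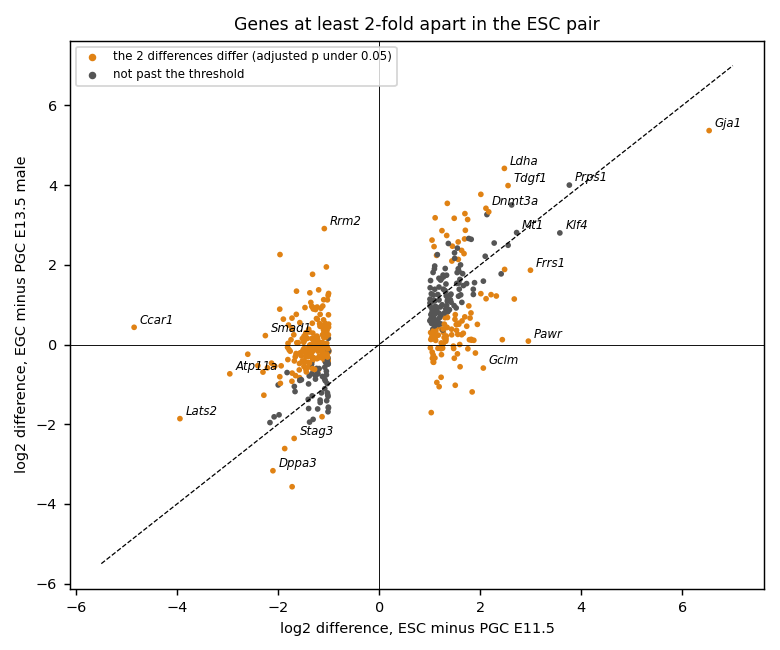
Log2 difference EGC minus male PGC E13.5 (y axis) against ESC minus PGC E11.5 (x axis) for the 223 genes higher and 252 genes lower by at least 2-fold in ESC, each point a gene. The dashed line marks equal differences, orange points differ between the pairs by the interaction test, and the lower genes gather near 0 on the y axis (median -0.17).

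By gene, Prps1, Klf4, Mt1 and Fabp3 were higher in EGC by 4.00, 2.80, 2.81 and 2.49, and for these 4 the difference between the pairs did not pass. Gja1 was higher in EGC by 5.37. Ldha (4.42) and Tdgf1 (3.99) differed more in the EGC pair, Dnmt3a did too (3.42, limma adjusted p of the interaction = 0.00103), and Dppa3 was lower there by more (-3.17). Pawr was at 6.18 in EGC and 6.10 in male E13.5 germ cells and did not pass there (interaction 2.87, adjusted p = 5.18e-07). Gclm was lower in EGC (-0.59) where it was higher in ESC (interaction 2.65, adjusted p = 3.48e-07). Among lower genes, Ccar1 differed by 0.43, Smad1 by 0.22 and Tdp2 by -0.24 in EGC and did not pass there, with interactions of -5.28, -2.48 and -2.36 that passed. Rrm2, the ribonucleotide reductase subunit, was lower in ESC (-1.09) and higher in EGC (2.91), an interaction of -4.00 (adjusted p = 1.37e-07), although its call in the ESC pair was lost without ESC replicate 2. Of the 21 glycolytic genes 15 were higher and 2 lower in EGC, with a median of 1.32. Of the 41 actin and adhesion genes 21 were higher and 2 lower. Over all genes 14.8% passed as higher in EGC and 15.9% as lower.

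The inner cell mass, the embryonic source of stem cells, was set beside both. Its arrays were not alike. The mean of 15 trophectoderm markers was 8.04 and 8.06 in ICM replicates 1 and 2 and 7.06 to 7.24 in PGC, while ICM replicate 3 (7.005) and the ESC arrays (7.18 and 7.002) were near the latter. Of these 15 markers 5, namely Eomes, Gata3, Krt18, Krt7 and Krt8, were at least 2-fold higher in both ICM replicates 1 and 2 than in replicate 3. Krt18 read 11.26 and 11.14 against 7.57. The ICM mean lay nearer ESC than PGC in 145 of the 223 genes higher in ESC (65.0%) and in 176 of the 252 lower ones (69.8%), counts that describe genes chosen for the distance between ESC and PGC. Taken alone, ICM replicates 1, 2 and 3 were nearer ESC in 136, 144 and 144 of the higher genes and in 187, 149 and 180 of the lower ones. Prps1 (11.10), Klf4 (11.78), Gja1 (13.09) and Pawr (8.33) had ICM means at or above the ESC level. Ccar1 (6.69), Gm11346 (4.81), Herc2 (7.58) and Elavl2 (5.48) in ICM were near the low ESC level. Other genes set ICM beside germ cells. Dppa3 was one, and Slc27a2 (5.71), Ldha (11.59) and 1190005I06Rik (6.37) in ICM were near or below the germ cell means of 6.23, 11.15 and 5.86, with ESC higher.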

How the data were processed

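Total RNA of mouse cells was amplified by 2 rounds of in vitro transcription, labelled with biotin and hybridised to Affymetrix arrays of 12488 probe sets, per the labels' protocols. The authors deposited log2 values, made with RMA per the submitters' processing notes; its version is not given in the sources used here. The number of arrays limits the precision. Of 34 columns, 2 were exact means of others (within 1e-06) and were dropped. The 66 control probe sets and probe sets with several symbols (396) or none (1193) were left out, and the probe set with the highest mean stood for each of 8251 genes, of which 2073 had several. Symbols came from GEO's platform annotation, updated by gene ID. limma 3.58.1 in R 4.3.3 fitted the 32 arrays of 10 groups with 1 mean each (22 residual degrees of freedom), with no filter, and was checked on simulated data. Named genes are the 12 largest differences in each direction without overlap, called 2-fold members of 38 gene lists and a set of fixed genes; smaller differences of list members in the text were chosen after their values were seen. Samples, lists and the rule were chosen with earlier results of these data known. Motifs were searched with Python. The alternatives tried are given at the end.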

Additional observations from a re-analysis of the deposited data

Results flagged for a closer look

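On some genes a single germ cell array lay apart from the other 3 by Dixon's criterion, which chance meets in about 1 of 20 groups. Replicate 4 was the array apart in 8 of 10 such genes: it was low for Bub1 (9.86 against 11.14 to 11.39), Ddx4 (6.24 against 6.89 to 6.99), Hmgb3 (11.98 against 12.34 to 12.38), Kit (7.91 against 8.68 to 8.78), Pdcd4 (10.27 against 11.22 to 11.37), Tdp2 (11.63 against 13.42 to 13.78) and Tfap2c (11.71 against 12.15 to 12.21), and high for Gsto1 (9.68 against 8.62 to 8.69). Replicate 1 was high for Eif2s3y (7.96 against 7.65 to 7.70) and replicate 2 low for Tpm1 (9.09 against 9.23 to 9.24). Over all 8251 genes, replicate 4 was apart in 420 (5.09%), against 68 (0.824%), 104 (1.26%) and 34 (0.412%) for replicates 1, 2 and 3. The rate of 1 of 20 is for all 4 arrays together, so it is not the chance rate of replicate 4 alone.

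For 18 of the 24 leading genes the ESC pair and the EGC pair differed by limma's interaction test, against 26.5% of all genes. These 24 were chosen for the size of 1 side of that test, so the count is a description. Among genes higher in ESC the interaction was 1.16 for Gja1 (adjusted p = 0.0249), 1.13 for Frrs1, 2.87 for Pawr, 1.53 for 1190005I06Rik and 0.60 for Slc27a2, larger in ESC, and -1.44 for Tdgf1 and -1.94 for Ldha, larger in EGC. Among genes lower in ESC it was -5.28 for Ccar1, -2.08 for Lats2, -2.22 for Atp11a, -2.36 for Tdp2 and -1.87 for Gm11346. It was -1.61 for Elavl2, -1.01 for Rhox6, -2.48 for Smad1, -1.63 for Herc2 and -1.66 for Spg21. In all of these the difference was more negative in the ESC pair. For Dppa3 it was 1.07, more negative in the EGC pair. Tdp2 had means of 10.49 in ESC, 10.11 in EGC and 10.36 in male germ cells at E13.5, against 13.09 in PGC E11.5.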

How the results depend on the processing

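A stricter test against a 1.5-fold difference left 144 genes higher in ESC and 145 lower, 143 and 142 of them by at least 2-fold. Dropping genes of low signal gave 855 higher genes and 628 with a positive interaction (ESC pair difference minus EGC pair difference). A positive interaction can also mean a smaller decrease in the ESC pair. Array weights gave 1749 genes with a positive interaction. Quantile normalization gave 232 genes lower in EGC by at least 2-fold in place of 139. Leaving out 1 array at a time gave 835 to 1364 higher and 767 to 1280 lower genes, 222 to 244 and 216 to 308 by at least 2-fold, and 745 to 1289 with a larger difference in the ESC pair. With only plain probe sets, Fzd3 (0.34), Pdia6 (0.27) and Socs3 (-0.18) took the opposite direction. With the replicate number as a block the counts were 1304 higher and 1222 lower. Deviations from the group mean correlated at -0.11 between ESC 1 and PGC 1 and at 0.16 between ESC 2 and PGC 2. The deviations of the 2 ESC arrays mirror each other, so these values are not independent. Whether arrays of 1 number share a batch was not tested. Of 89 named genes that passed, 78 were measured under every alternative, and 43 of these passed in each. The other 11 had no value under at least 1 alternative, and 9 of them passed wherever measured. List counts without an ESC array or PGC replicate 4 and the ICM arrays taken singly were added after seeing the data. The ESC group holds 2 arrays. The causes were not tested.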
